A study of Rattus norvegicus with 7 samples.

Results

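miR-132-3p and miR-212-3p of the rat (rno-miR-132-3p and rno-miR-212-3p in the files) are a pair of microRNAs that are cut from neighbouring hairpins of 1 locus and carry the same seed. Their values were taken from every non-control spot whose gene name was one of the 2, which gave 4 probes with 10 spots each per array. They are 2 of the 719 miRNAs, and 4 of the 1730 probes, of an Agilent rat miRNA array. The samples were primary skeletal muscle cells from the limbs of newborn rats (RSkMC, bought as a cryopreserved stock at second passage), and all of them had been kept in medium with 2% horse serum for 11 days to differentiate. The controls were 3 untreated samples, and 4 samples had recombinant interleukin-6 (IL-6, a cytokine that working muscle releases) at 1 ng/ml during those 11 days. The growth text attached to the control samples names IL-6 as well, so the groups rest on the titles and the series design. Nothing in the labels says whether the replicates came from separate cultures or animals, and p-values therefore measure only the spread between these samples. None of the 7 muscle-specific miRNAs used to check the label was detected on any array.

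MicroRNAs are short RNAs that guide Argonaute proteins to messenger RNAs, mainly through the seed, bases 2 to 8 from the 5′ end. The pair is transcribed together, and the transcription factor CREB, which binds the cAMP response element, is known to drive it in neurons after synaptic activity and growth factor signals. The pair is best known in the brain, where it shapes dendrites, and in the heart, where it promotes the growth of muscle cells and represses the transcription factor FoxO3.

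The mature sequences show why the members are read as a pair and how the array tells them apart. They come from RefSeq (build GRCr8), 5′ to 3′, with the seed in capitals, and the opposite arms of both hairpins are given for comparison.
miR-132-3p: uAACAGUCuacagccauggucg
miR-212-3p: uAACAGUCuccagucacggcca
miR-132-5p: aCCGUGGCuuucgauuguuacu
miR-212-5p: aCCUUGGCucuagacugcuuacug
The 3p arms are both 22 bases long, share 17 of them (77.3%) and are identical over the first 9. Counted from the 5′ end, with the base of miR-132-3p first, the differences are A10C, C14U, U17C, U20C and G22A. Of 693 mature rat miRNAs in the RefSeq table, these 2 alone have the seed AACAGUC. The 5p arms do not share a seed with each other or with any other entry of the table.

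The array reads the 3′ part of each miRNA, where the pair differs. The probes of miR-212-3p pair with no base of the shared seed, and those of miR-132-3p with its last 2 bases or its last one. Each miRNA has 2 probes, and the longer one adds a single base, shown in capitals.
miR-132-3p, 16 bases (A_26_P00001346): cgaccatggctgtagA
miR-132-3p, 15 bases (A_26_P00001347): cgaccatggctgtag
miR-212-3p, 14 bases (A_26_P00001480): tggccgtgactggA
miR-212-3p, 13 bases (A_26_P00001479): tggccgtgactgg
The probes of miR-132-3p pair with bases 7 to 22 and 8 to 22 of it, and those of miR-212-3p with bases 9 to 22 and 10 to 22. All 5 differences between the members lie inside each probe, so each of the 4 has 5 mismatches to the other member. The 2 probes of a miRNA bind the same molecule and are not replicates of each other. In the coordinates of the files (build rn4) the 16-base probe of miR-132-3p is placed at chr10:62480792-62480806 and the 14-base probe of miR-212-3p at chr10:62480514-62480526. These listed intervals are 1 base shorter than the probes. The 3′ ends of both miRNAs lie 280 bases apart.

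In RefSeq's gene order the pair stands between the protein-coding gene Hic1 and the long non-coding RNA LOC120095261, in the order Hic1, Mir212, Mir132, LOC120095261, Ovca2. Neither hairpin overlaps another gene of that table. The start window of LOC120095261 (GRCr8, chr10:60521892-60522191, plus strand, 300 bases) begins 41 bases after the Mir212 hairpin and holds the whole Mir132 hairpin at its bases 142 to 242. It is shown because it covers most of the interval between the hairpins. The capitals mark a match to the cAMP response element.
LOC120095261 start window: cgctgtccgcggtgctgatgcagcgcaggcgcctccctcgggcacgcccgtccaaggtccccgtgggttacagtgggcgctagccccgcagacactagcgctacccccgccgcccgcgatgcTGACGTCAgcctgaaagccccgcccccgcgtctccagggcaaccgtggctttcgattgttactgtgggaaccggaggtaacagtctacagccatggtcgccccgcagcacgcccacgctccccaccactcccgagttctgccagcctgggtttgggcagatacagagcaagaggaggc
The motif TGACGTCA, which reads the same on both strands, had 1 match, at bases 123 to 130, which is 11 bases before the Mir132 hairpin and 163 bases after the Mir212 hairpin. The shorter motif TGACG, searched on both strands, had 2 matches, and both lie inside that element. Of 33469 start windows of this length in RefSeq, 1.83% held TGACGTCA and 21.2% held TGACG on either strand. At least 2 matches to TGACG, as here, were held by 4.96%. A match describes the letters, and no binding was measured here. The Mir132 hairpin itself, with both mature arms in capitals, runs as follows.
Mir132 hairpin: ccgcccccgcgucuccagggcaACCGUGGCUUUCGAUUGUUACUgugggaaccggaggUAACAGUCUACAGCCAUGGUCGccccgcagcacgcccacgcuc

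Both 3p arms were detected on all 7 arrays, and both 5p arms on none. Of the 280 member spots, 9 were marked as outliers by the scanner software and left out, and all 271 others were well above background. None was saturated. For miR-132-5p the mean signal of a probe on an array ran from -1.74 to 2.88 intensity units, and for miR-212-5p from -5.20 to -0.69. The negative control spots of an array had means of 3.52 to 6.21, all above these values, and none of the 277 kept spots of the 5p arms was well above background. No change with IL-6 is therefore given for the 5p arms.

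Before any scaling between arrays, the groups overlapped for both members. The 16-base probe of miR-132-3p gave 44.9, 50.1 and 58.4 intensity units on control replicates 1, 2 and 3, and 38.9, 57.8, 45.4 and 50.7 on IL-6 replicates 1, 2, 3 and 4. The 14-base probe of miR-212-3p gave 337, 395 and 367 on the controls and 310.2, 412, 364 and 379 on the IL-6 arrays. IL-6 replicate 2 was the brightest of its group and IL-6 replicate 1 the dimmest in both. Over the probes well above background everywhere, the 75th percentile of the whole array was 412 to 491 on the controls and 429 to 611 on the IL-6 arrays, with the highest value on that same IL-6 replicate 2. Signals of different probes depend on how well each one binds, so the higher numbers of miR-212-3p do not rank the members by amount.

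**Figure D1:**
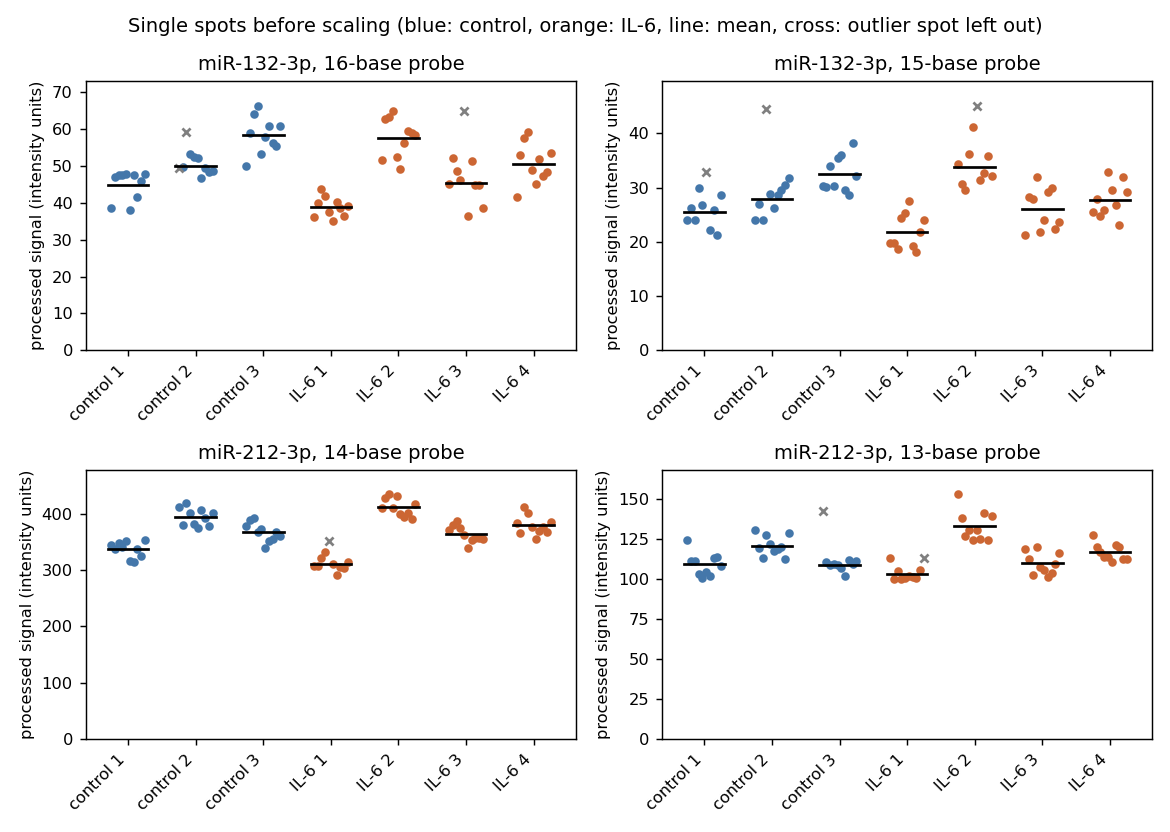
Processed signal in intensity units (y axis, linear, from 0) of each spot of the 4 member probes on the 7 arrays (x axis); the lines are means of the spots kept, and crosses are the 9 outlier spots left out. Control and IL-6 arrays cover overlapping ranges for every probe, for example 44.9 to 58.4 and 38.9 to 57.8 for the 16-base probe of miR-132-3p.

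The SD over the spots of an array was 4.47% to 11.5% of the mean for the 16-base probe of miR-132-3p and 9.86% to 14.8% for its dimmer 15-base probe. For miR-212-3p it was 3.69% to 4.54% with the 14-base probe and 2.65% to 7.07% with the 13-base probe. The standard error of an array's mean from its spots was at most 0.06 on the log2 scale for the 16-base probe and at most 0.02 for the 14-base probe.

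With each array divided by its 75th percentile, miR-132-3p was lower in all 4 IL-6 samples than in all 3 controls. Its 16-base probe, the brighter one, gave 53.1, 52.7 and 58.0 scaled intensity units on control replicates 1 to 3, and 44.1, 46.1, 42.6 and 48.4 on IL-6 replicates 1 to 4. On the log2 scale the means were 5.77 ± 0.08 (SD, n = 3) and 5.50 ± 0.08 (SD, n = 4). miR-132-3p fell by 17.0%, a log2 fold change of -0.27 ± 0.06 (SE; 95% interval -0.41 to -0.13). It passed the test over all 181 miRNAs (limma, Benjamini-Hochberg adjusted p = 0.0384), in which 8 miRNAs, or 4.42%, were called lower with IL-6 and 9, or 4.97%, higher (9.39% in either direction). Only 7 of the 181 had a more negative fold change.

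miR-212-3p had the same direction with a smaller value and did not pass. Its 14-base probe gave 398, 415 and 365 scaled intensity units on the controls and 352, 328, 342 and 362 on the IL-6 arrays. The groups do not overlap, but control replicate 3 lies close to the IL-6 values. The log2 means were 8.61 ± 0.09 (SD, n = 3) and 8.43 ± 0.06 (SD, n = 4), a fold change of -0.18 ± 0.05 (SE; 95% interval -0.31 to -0.05; limma, Benjamini-Hochberg adjusted p = 0.103). Groups without overlap were found for both members, and for 9.39% of the tested miRNAs in this direction and 13.3% in the other. For each member the exact two-sided permutation p was 0.0286, unadjusted, the smallest that the 35 splits of 3 and 4 arrays allow. In total RNA of a culture, fewer cells that make a miRNA and less of it per cell cannot be told apart.

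The call for miR-132-3p was not stable. In fits that left out 1 array the log2 fold change stayed between -0.30 and -0.22, and the call was lost without control replicate 1, 2 or 3 or IL-6 replicate 1, 2 or 3 (adjusted p between 0.0691 and 0.0964 by limma with Benjamini-Hochberg) and kept without IL-6 replicate 4 (0.0461). Without scaling, the change was -0.094 for miR-132-3p and -0.0047 for miR-212-3p, and with scaling by spike-in RNA it was -0.085 and 0.0039. Neither passed in these settings (adjusted p by limma with Benjamini-Hochberg between 0.657 and 1). The median of all tested miRNAs moved from 0.02 to 0.17 and 0.18 in them, so that relative to the median the members stood at -0.27 and -0.18 without scaling and at -0.27 and -0.18 with spike-in scaling. A factor per array moves the members and the median alike, so these distances are no test of stability. The controls occupied one slide row and the treated arrays another, and row and treatment cannot be told apart.

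**Figure D2:**
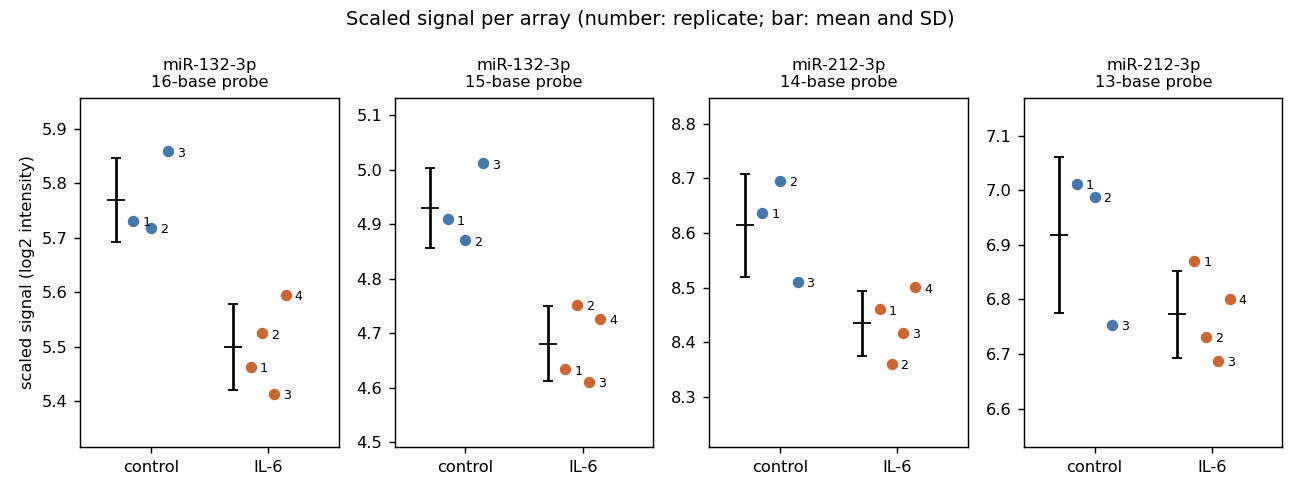
Scaled signal (y axis, log2 intensity; each panel spans the same height) of the 4 member probes by group (x axis); points are arrays labelled with their replicate number, and bars are the mean and SD of 3 control and 4 IL-6 arrays. Groups do not overlap for both probes of miR-132-3p and the 14-base probe of miR-212-3p; control replicate 3 is the highest control for miR-132-3p and the lowest for miR-212-3p.

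The second probes had the same direction. The 15-base probe of miR-132-3p gave 30.0, 29.2 and 32.3 scaled units on the controls and 24.8, 26.9, 24.4 and 26.5 on the IL-6 arrays, without overlap, and its log2 fold change was -0.25 ± 0.05. The 13-base probe of miR-212-3p gave 129, 127 and 108 on the controls and 117, 106, 103 and 112 on the IL-6 arrays. Here control replicate 3 fell among the IL-6 values, and the fold change was -0.15 ± 0.08. In a fit over the 393 probes of the tested miRNAs, where 1.78% were called lower and 2.54% higher, none of the 4 member probes passed (limma, Benjamini-Hochberg adjusted p = 0.0695 and 0.0666 for the 16- and 15-base probes, 0.151 and 0.416 for the 14- and 13-base probes). An unadjusted limma p under 0.05 was found for 3 of the 4. Such a p was common: in the fit over miRNAs, 50 of the 181 had one. The groups did not overlap for 3 of the 4, against 7.38% of these 393 probes in this direction. The log2 difference of the 15-base and 16-base probes of miR-132-3p was -0.85 to -0.82 on the controls and -0.87 to -0.77 on the IL-6 arrays, a change of 0.02. That of the 14-base and 13-base probes of miR-212-3p was 1.63 to 1.76 and 1.59 to 1.73, a change of -0.035.

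Whether the changes of the members differ was tested on the log2 difference of their brighter probes within each array, which a scaling factor per array leaves as it is. The difference, miR-212-3p minus miR-132-3p, was 2.91, 2.98 and 2.65 on control replicates 1 to 3 and 3.00, 2.83, 3.00 and 2.90 on IL-6 replicates 1 to 4. Its size may hold both amount and probe binding, so only its change is read here. It was 0.09 higher with IL-6 (95% interval from limma -0.12 to 0.30; exact two-sided permutation p = 0.429), and the groups overlapped. This depended on the processing: the change was 0.25 with quantile normalization (exact permutation p = 0.0286) and -0.10 with normexp background (exact permutation p = 0.457). With the other pairings of a miR-132-3p and a miR-212-3p probe the change was 0.07 to 0.12 (exact permutation p = 0.514 for each, adjusted p = 0.514 over 6 probe pairs). The interval covers equal changes as well as a fall of miR-132-3p that is larger by more than the whole change of miR-212-3p. The lowest difference, 2.65, belongs to control replicate 3, where both probes of miR-132-3p were the highest and both probes of miR-212-3p the lowest of the controls. Without that array the change in the difference was -0.0075, with -0.22 for miR-132-3p and -0.23 for miR-212-3p.

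**Figure D3:**
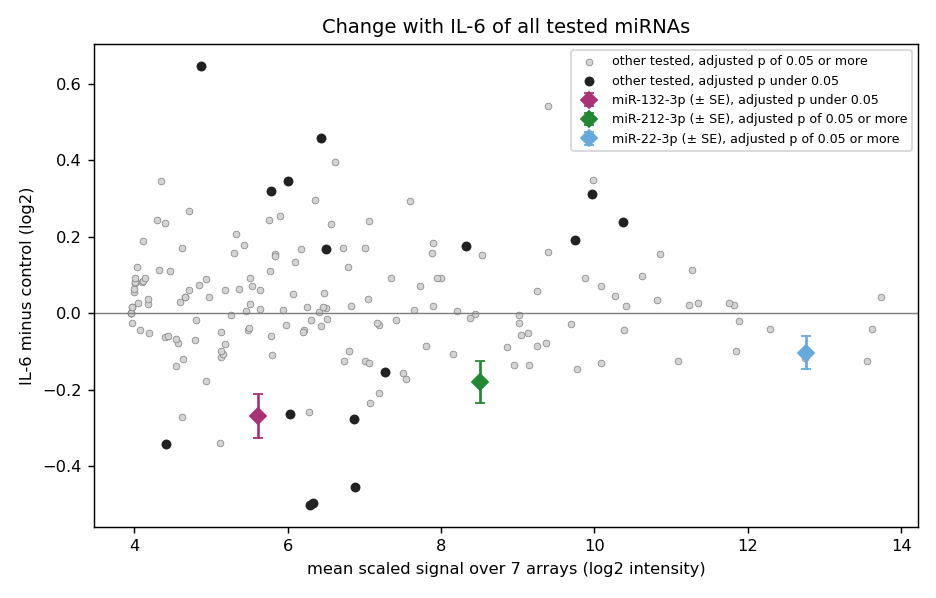
Log2 fold change of IL-6 against control (y axis) by mean scaled signal over the 7 arrays (x axis, log2 intensity) for the 181 tested miRNAs; diamonds with SE bars are miR-132-3p, miR-212-3p and miR-22-3p, and black points have an adjusted p under 0.05. miR-132-3p (-0.27) lies among the lowest values, miR-212-3p (-0.18) above it, and the median of all is 0.02.

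Among all 181 tested miRNAs, 76 had a negative fold change and the median was 0.02. The standard errors of the members, 0.06 and 0.05, were below the median SE of 0.07.

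The other miRNA that the files place within 1 Mb of the pair is miR-22, with 301994 bases between the listed ends of miR-132-3p and miR-22-3p (chr10:62782783-62782800, rn4). miR-22-3p, which is abundant in muscle, had a log2 fold change of -0.10 ± 0.04, and its opposite arm miR-22-5p one of 0.02 ± 0.03. Neither passed (limma, Benjamini-Hochberg adjusted p = 0.182 and 0.833).

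The profiles of other miRNAs over the 7 arrays were set against those of the members. Likeness was the root mean square (RMS) difference of log2 values, each centred on its own mean, and smaller is closer. The difference between the groups enters this measure, so near profiles have similar fold changes by construction. Closest to miR-132-3p were miR-1949 (0.039), miR-1839-3p (0.073), miR-34b-5p and miR-34c-5p (0.078 each) and miR-210-3p (0.079), where the median over the 180 other miRNAs was 0.181. miR-34b and miR-34c are known p53 targets, and miR-210 is induced by hypoxia. Of these 5, 3 passed: miR-1949 had a log2 fold change of -0.26, miR-34c-5p of -0.28 and miR-210-3p of -0.34. Those of miR-1839-3p (-0.27) and miR-34b-5p (-0.21) were also negative but did not pass. With IL-6, miR-210-3p and miR-1839-3p had log2 means of 4.26 and 4.51, near the floor of 3.96. Closest to miR-212-3p were miR-31a-5p (0.030), miR-324-3p (0.052), miR-221-3p (0.056), miR-24-3p (0.058) and miR-222-3p (0.060), with a median of 0.154. None of these passed, and their log2 fold changes ran from -0.17 to -0.09. The members were not among each other's nearest: at an RMS difference of 0.114, miR-212-3p ranked 17 for miR-132-3p, and miR-132-3p ranked 42 for miR-212-3p. All profiles share the same 7 arrays and their scaling.

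Of 14 miRNAs listed for neuronal activity and CREB signalling, all on the array, 9 were detected on no array and 5 were tested. The single call was miR-132-3p itself, beside 4.42% called lower and 4.97% higher over all tested miRNAs, and none of the 3 others was called. Beside the pair, the tested members were 3 miRNAs of the large imprinted Dlk1-Dio3 cluster, of which the factor MEF2 is known to drive several in neurons. The log2 difference was -0.02 ± 0.07 for miR-329-3p and 0.23 ± 0.07 for miR-379-5p, and neither passed (limma, Benjamini-Hochberg adjusted p = 0.908 and 0.0962). miR-381-3p was at the floor on every control, so its 0.12 ± 0.07 could not have been negative. The median of all 5 was -0.02, beside 0.02 for all tested miRNAs. Without the pair it was 0.12, with 1 of 3 negative. That median is the value of miR-381-3p itself, whose sign the floor limits, so nothing is read from it or from this count. Of the 7 neural markers, 4 were detected on no array, among them miR-124-3p, miR-9a-5p and miR-137-3p. The other 3, miR-128-3p, miR-218a-5p and miR-219a-5p, were detected on all 7 arrays and tested, and none passed. Their summed signal was 6.89 to 7.14 on the controls and 7.03 to 7.18 on the IL-6 arrays (log2).

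Of 12 miRNAs listed for inflammation and cytokine response, 11 were on the array by name and 7 were tested. Only miR-132-3p was called, and none of the 5 members other than the pair. Of the 7, 6 had a negative value with a median of -0.17, where 76 of all 181 tested were negative and 4.42% were called lower. Without the pair the median was -0.09, with 4 of 5 negative. The log2 fold change was 0.04 ± 0.08 for miR-21-5p, a known target of the IL-6 effector STAT3. It was -0.04 ± 0.03 for miR-125b-5p. For miR-221-3p and miR-222-3p, which share a cluster, it was -0.09 ± 0.04 and -0.17 ± 0.08. miR-146a-5p and miR-146b-5p, induced by NF-kappaB, were detected on no array, and miR-155-5p was not analysed here.

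Of 12 miRNAs listed for growth of heart muscle, 8 were tested. The call for miR-132-3p is the same one as above, and none of the 6 others was called, beside 4.42% called lower over all tested. The median was -0.10, and -0.06 over the 6 members other than the pair. Of these 6, 4 were negative, where 76 of all 181 tested were, and miR-21-5p (0.04) and miR-214-3p (0.04) were positive. miR-23a-3p, which targets the atrophy ligase MuRF1, stood at -0.12 ± 0.06 (log2), and miR-24-3p of the same cluster at -0.10 ± 0.03, without passing (limma, Benjamini-Hochberg adjusted p = 0.260 and 0.112). The 4 not tested were detected on no array, among them miR-208a-3p, which lies in a myosin heavy chain gene.

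The 7 muscle-specific miRNAs, which include the miR-1 and miR-133 families and the miRNAs of myosin heavy chain genes, had a highest probe signal of 9.16 scaled intensity units, below the floor of 15.6. All 5 fibroblast and smooth muscle markers were detected on every array, with a summed signal of 14.52 to 14.61 on the controls and 14.35 to 14.56 on the IL-6 arrays (log2), and 4 of the 5 had a negative fold change but none passed. None of the 2 endothelial and 6 epithelial markers was detected, and none of the 6 haematopoietic markers could be tested. The part of the cell make-up in the change of miR-132-3p was not tested.

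**Figure D4:**
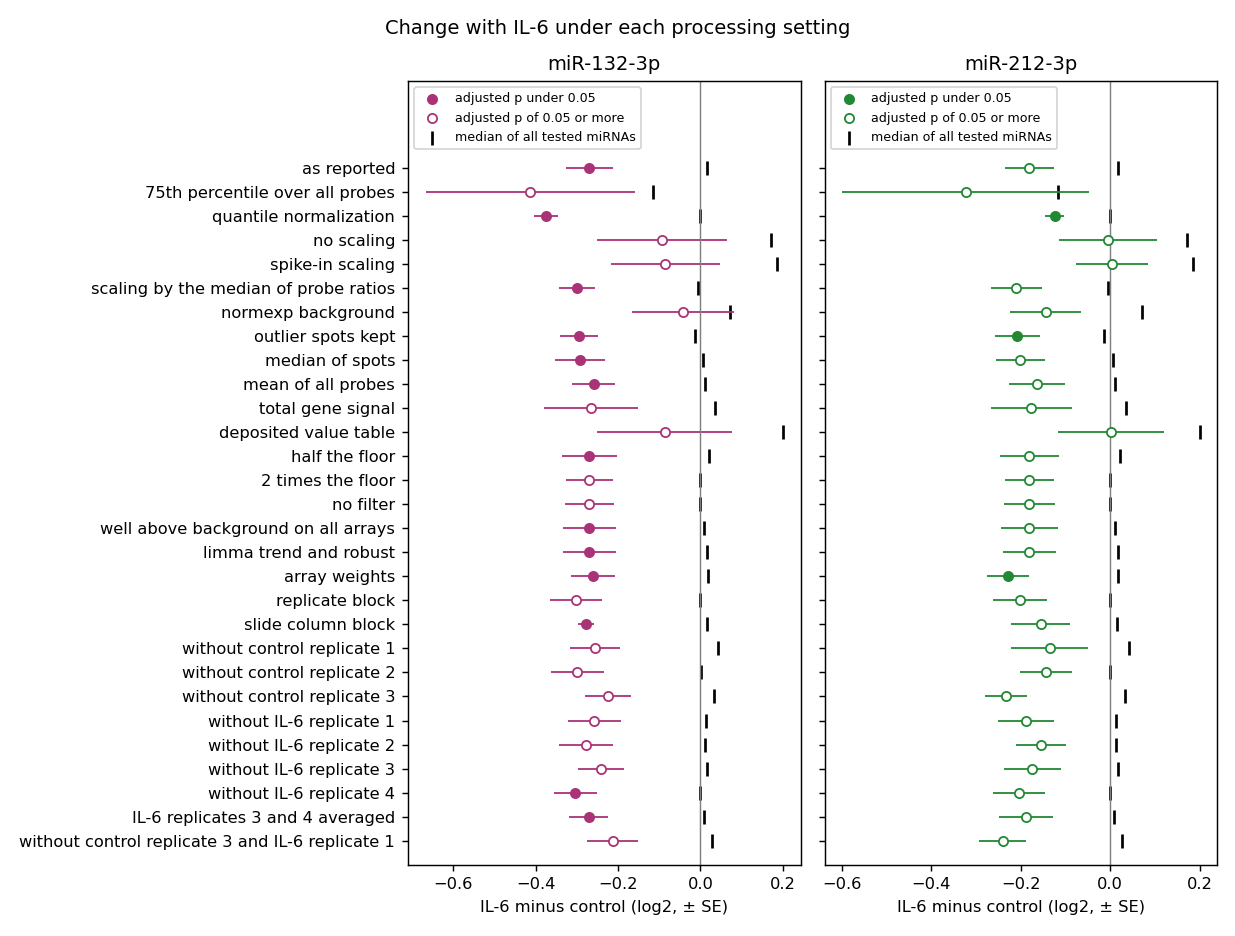
Log2 fold change with SE (x axis) of miR-132-3p (left) and miR-212-3p (right) under each processing setting (y axis); filled points have an adjusted p under 0.05, and black ticks are the median of all tested miRNAs. In the deposited value table, without scaling and with spike-in scaling the points lie closer to 0 and the median lies higher; with normexp background miR-132-3p stands at -0.042 and the median at 0.07.

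A factor applied to a whole array shifts all its miRNAs alike, so the distance of a member from the median of the tested miRNAs changes little by construction under such scalings and is no test of stability. That distance was -0.29 for miR-132-3p and -0.20 for miR-212-3p as reported. Where bright and dim probes are changed unequally it moved more, to -0.37 and -0.12 with quantile normalization and to -0.11 and -0.22 with normexp background.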

How the data were processed

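Cy3-labelled total RNA was hybridised to 1-colour arrays, 1 per sample and all on 1 slide. Per the file headers, the authors' scanner output came from Feature Extraction 10.10.1.1 and gives an intensity for each spot, with background subtracted and no scaling from one array to the next. Control and outlier spots (2.99% to 3.90%) were left out, spots averaged per probe, scaled to a shared 75th percentile (taken from 269 probes that exceeded background everywhere), floored at 15.6 intensity units (the median over arrays of the lowest signal above background) and put on the log2 scale. Each miRNA took its brightest probe. The 181 miRNAs detected throughout 1 group or both were fitted with limma 3.58.1 in R 4.3.3, with Benjamini-Hochberg adjustment and a threshold of 0.05. Named miRNAs were the members, their opposite arms, miRNAs within 1 Mb, the 5 nearest profiles of each member, and list members past the threshold or among the 3 of highest level; undetected list miRNAs named beside them were chosen after their values were seen. Alternatives changed the scaling, background, floor, filter, probe choice, blocks and arrays left out. The procedure was tested on simulated data. The members, lists, tests and alternatives were chosen with earlier results of these data known. The number of arrays limits the precision.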

Additional observations from a re-analysis of the deposited data

Results flagged for a closer look

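Of 29 quantities set against Dixon's 95% critical value within the 4 IL-6 arrays, 1 passed, where chance does so in about 1 in 20. It was miR-214-3p of the heart muscle list, with a log2 scaled signal of 10.72 on IL-6 replicate 2 and the remaining treated arrays between 10.85 and 10.87 (ratio of gap to range 0.835). Neither member, nor any of their 4 probes or the difference between them, passed within the IL-6 arrays. Each member has the values of its brighter probe, so these values enter the 29 under 2 names. The 3 controls were not put to this test.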

How the results depend on the processing

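Changes of the floor, the filter or the variance options of limma, and the exact test, could not alter the fold change of miR-132-3p. Counting these, its log2 fold change was negative in all 29 alternatives. It no longer passed with the 75th percentile over all probes (-0.41), no scaling (-0.094), spike-in scaling (-0.085), the deposited value table of unscaled total probe signals (-0.086), normexp background (-0.042), total gene signal (-0.27), 2 times the floor (-0.27), no filter (-0.27) or with control replicate 3 left out together with IL-6 replicate 1 (-0.21). Leaving out 1 array gave -0.30 to -0.22 for it, -0.23 to -0.14 for miR-212-3p and -0.0075 to 0.15 for the change in their difference. miR-212-3p passed with quantile normalization (-0.12), outlier spots kept (-0.21), array weights (-0.23) and the unadjusted exact test (-0.18), and its sign turned in the value table (0.0026) and with spike-in scaling (0.0039). The change in the difference passed with quantile normalization (0.25, exact permutation p = 0.0286) and turned with normexp background (-0.10) and with those same arrays left out (-0.028). Among the probes, the 16-base one passed with quantile normalization (-0.37), median-ratio scaling (-0.30) and outlier spots kept (-0.29), the 15-base one with the first 2 of these (-0.30 and -0.28) and the 14-base one with quantile normalization (-0.12); with spike-in scaling the 13-base one was 0.039 and the 14-base one 0.0039. The causes were not tested. Over the settings 0 to 18 miRNAs were lower and 0 to 30 higher, against 8 and 9. With the replicate block the change of miR-132-3p was -0.30 and did not pass (limma, Benjamini-Hochberg adjusted p = 0.120); that of the difference was 0.10. Same-numbered arrays correlated in their deviations at 0.52, -0.17 and 0.26. With only 3 such values, whether the numbers pair the samples cannot be told. Arrays of the same slide column correlated at 0.52, 0.18 and 0.13. With the column as a block the change of miR-132-3p was -0.28 (limma, Benjamini-Hochberg adjusted p = 0.0391), and 3 miRNAs were lower and 4 higher. IL-6 replicate 2 was alone in its column and so adds nothing to this change. The fit without that array gave the same -0.28 and lost the call (limma, Benjamini-Hochberg adjusted p = 0.0770). Member signals were all above background. The number of arrays limits the precision, and the part of the spread over spots in it was not tested.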
